A study of Capra hircus with 13 samples.

Results

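The transcriptome of goat (Capra hircus) embryos at the 8-cell stage was compared with that of MII oocytes, the mature oocytes that wait in the second meiotic division for fertilization. The comparison used 6 of the 13 libraries of the series, 3 of 8-cell embryos made by in vitro fertilization (IVF) and 3 of MII oocytes, all labelled untreated, and they were chosen by their stage and treatment labels. The labels give poly(A) RNA, direct lysis and Smart-seq2 for all libraries, and culture of embryos in BO-IVC medium with serum. The untreated libraries were taken from earlier work, and the number of pooled cells and the goats behind each of them are not given in the sources used here. The labels give 72 h and 168 h after IVF as times of collection for the series, and the study's methods 72 h for embryos used for RNA-seq. Values are FPKM, fragments of a gene relative to its length and to the fragments of its library, which were further divided by 1 factor per library (rescaled FPKM, explained with the libraries). Genes were tested where the mean deposited FPKM over the 6 libraries was at least 1, which left 9210 of the 18159 gene names listed once in both tables.

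The oocyte enters fertilization with a store of mRNAs made during its growth, and transcription is silent in it. In the maternal-to-zygotic transition (MZT) these maternal mRNAs are masked, adenylated, translated or removed, and the genome of the embryo takes over, which in goat, bovine and human embryos is known as zygotic genome activation (ZGA) and falls near the 8-cell stage. A comparison of the 8-cell stage with the MII oocyte spans both processes. In bulk libraries a gene's share of the RNA is measured, so a change in RNA per embryo, in poly(A) tail length or in transcript number cannot be told apart.

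The MII libraries held 34219297 to 42495113 fragments and the 8-cell libraries 27145985 to 30345378, as recovered from the steps of the FPKM values. The genes shared by both tables carried 64.9 to 66.3% of the MII totals and 94.7 to 96.7% of the 8-cell totals, so that deposited FPKM of the MII oocytes are low relative to those of the embryos. Factors were therefore taken as the median ratio of each library to the geometric mean of all 6 over 12664 genes above 0 in every library, and came to 0.829, 0.986 and 0.802 for MII replicates 1 to 3 and 1.41, 1.004 and 1.08 for 8-cell replicates 1 to 3. After this step the log2 fold changes over the 9210 tested genes had a median of 0.04, against 0.37 as deposited. Replicate 1 of the 8-cell embryos stood apart, with correlations of log2 values of 0.856 and 0.900 with the other 8-cell libraries, which correlated with each other by 0.966, whereas MII libraries correlated by 0.947 to 0.976. Correlations between the stages were 0.763 to 0.838. The untreated libraries come from 2 previous studies, the study of each one is not stated, and a difference between studies and one between stages cannot be told apart. For a look beyond the 6 libraries, levels in the 3 untreated 4-cell libraries and in the 2 libraries of 8-cell embryos injected as zygotes with negative control (NC) siRNA were set beside them on the same scale. The NC table was normalized apart from the others, and no test was run on it.

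With limma on log2(rescaled FPKM + 1), 910 genes were increased and 1009 were decreased at the 8-cell stage (Benjamini-Hochberg adjusted p below 0.05, and over 2-fold in size). This was 9.88% of the tested genes called increased and 11% called decreased. The balance between the directions rests on the scaling. As deposited, 1585 genes were increased and 627 decreased, so that decreases were 28.3% of the calls against 52.6%, and with library totals over the shared genes they were 61.0%, 1149 against 734 increases. Under all 3 other scalings 712 of the 910 and 627 of the 1009 genes were called. Without 8-cell replicate 1, the library that stood apart, 1263 genes were increased and 1247 decreased. Fewer were called when MII replicate 1 (409 and 519), MII replicate 3 (490 and 706) or 8-cell replicate 3 (491 and 629) was left out, and 375 increases and 495 decreases were called in all 6 fits that left out 1 library. The median of the increased genes went from 4.22 rescaled FPKM in the MII oocytes to 20.1 in the 8-cell embryos, and that of the decreased genes from 18.4 to 4.29. More than 8-fold changes were called for 76 increased and 69 decreased genes.

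**Figure D1:**
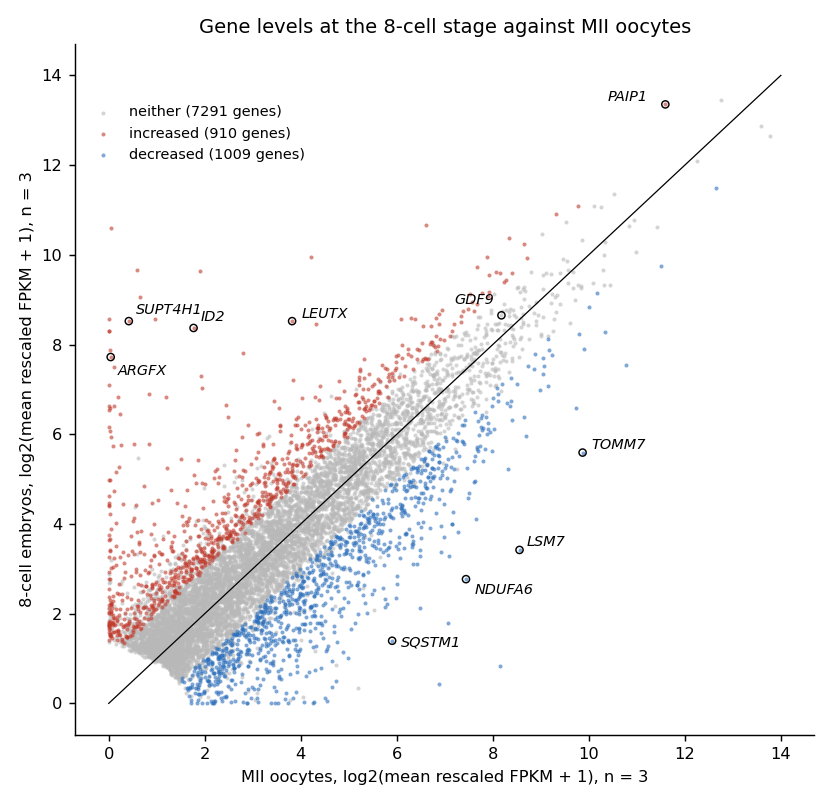
Mean level of each of the 9210 tested genes in MII oocytes (x axis) and 8-cell embryos (y axis), both as log2(mean rescaled FPKM + 1) of 3 libraries, with the line of equal levels. Red points are the 910 increased and blue points the 1009 decreased genes; *SUPT4H1* and *ARGFX* lie at the left edge and *LSM7* and *NDUFA6* lie far below the line.

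Among genes with a symbol, the largest increases were those of *SUPT4H1*, *ID2* and *ARGFX*. *SUPT4H1* encodes the small subunit of the elongation factor DSIF, which acts with SUPT5H on RNA polymerase II. Its level was 0.0423, 0.0863 and 0.881 rescaled FPKM in the MII libraries and 330, 324 and 445 in the 8-cell libraries, a log2 fold change of 8.14 ± 0.31 (SE, n = 3 and 3, adjusted p = 1.06e-05). Its 4-cell levels of 20.4, 96.5 and 45.3 lay between the stages, and the groups were far apart in every library. *ID2* encodes a helix-loop-helix inhibitor that binds E proteins without binding DNA. It measured 0.279, 0.0829 and 6.85 in the MII libraries and 297, 345 and 347 in the 8-cell libraries (log2 fold change 7.22 ± 0.68, adjusted p = 0.000552). One MII library, replicate 3, was thus well above the others. Groups without overlap were a condition for the largest named changes, and 43.2% of all tested genes met it.

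Homeobox genes of the PRD-like class, which are known from human and bovine embryos as genes of genome activation, made up 3 of the 12 largest named increases. *ARGFX* had 3, 0 and 0 fragments in the MII libraries and reached 37.4, 495 and 97.9 rescaled FPKM in the 8-cell libraries (log2 fold change 6.91 ± 0.79, adjusted p = 0.00128). *DUXA* went from 1.06, 0.924 and 0.412 to 16.2, 296 and 42.9 (5.10 ± 0.88, adjusted p = 0.00578), and *LEUTX* from 11.4, 13.4 and 14.6 to 179, 575 and 346 (4.55 ± 0.41, adjusted p = 0.000416). All 3 were lowest in 8-cell replicate 1 and highest in replicate 2. For *DUXA* the 8-cell mean ± SD was 118 ± 154, with 1 high value in replicate 2. Its lowest 8-cell value lay above every MII value, as the rule for named increases required. *LEUTX* was above 10 in every oocyte library, while *ARGFX* and *DUXA* were near or below 1.

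Of the other 7 large increases, *ZNF596* and *ZIM3* encode zinc finger proteins. *ZNF596* rose from 0.306, 0.0999 and 0.127 rescaled FPKM to 54.9, 154 and 50.2 (log2 fold change 6.02 ± 0.43, adjusted p = 0.000132). *ZIM3* rose from 0.114, 0.0372 and 0.0948 to 28.9, 213 and 49.8 (5.99 ± 0.64, adjusted p = 0.000996). Both were below 1 in all MII libraries. *PMAIP1*, which encodes the pro-apoptotic BCL2 family protein NOXA, went from 1.21, 1.63 and 1.01 to 57.6, 155 and 126 (5.53 ± 0.38, adjusted p = 0.000122). *RSRP1*, an arginine and serine rich protein gene, went from 0.0624, 0.0765 and 0.117 to 19.4, 26.4 and 31.1 (4.59 ± 0.26, adjusted p = 5.36e-05). *TMEM37*, *ZCCHC10* and *VIMP*, the last a selenoprotein of endoplasmic reticulum quality control, had log2 fold changes of 4.82, 3.901 and 3.75. *ZCCHC10* had 141 rescaled FPKM in 8-cell replicate 2 and 8.23 and 13.5 in the others, and its call was lost without MII replicate 1 (adjusted p = 0.0617) or MII replicate 2 (adjusted p = 0.0502). The other 11 large increases were called in all 6 fits without 1 library.

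**Figure D2:**
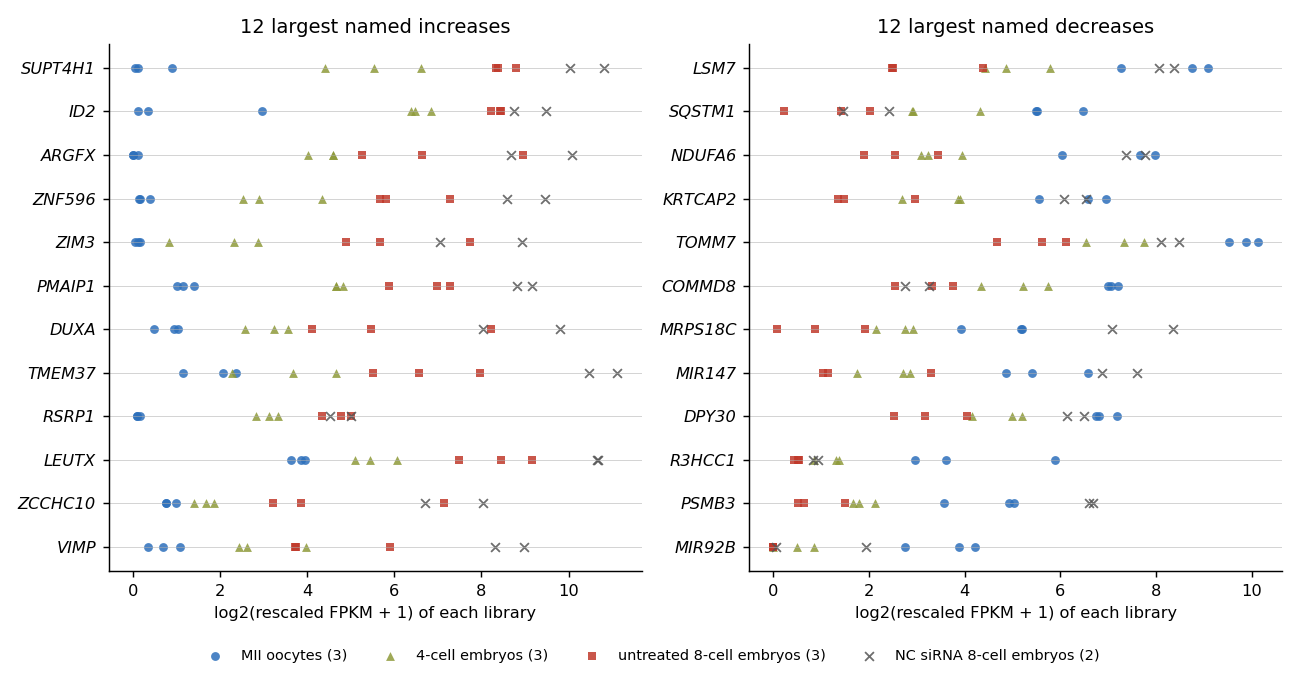
Level of the 12 largest named increases (left) and decreases (right) in each library, as log2(rescaled FPKM + 1), with 1 point per library of MII oocytes, 4-cell, untreated 8-cell and NC siRNA 8-cell embryos. The 24 genes were picked among those whose MII and untreated 8-cell points do not overlap, which held for 43.2% of all tested genes. The NC siRNA points of *LSM7*, *NDUFA6* and *MRPS18C* lie among or above the MII points.

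Genes that went from near 0 to a high level, or the reverse, were counted separately, as a description. Below 1 rescaled FPKM in all 3 MII libraries and at 10 or more in all 3 8-cell libraries were 34 names, and 11 of them had no fragment in any MII library. Among them were *SUPT4H1*, *ARGFX*, *ZNF596*, *ZIM3* and *RSRP1*, while 28, such as *LOC108634189* (0.0216 to 0.0423 against 789, 2464 and 1398 rescaled FPKM), carried provisional LOC names, and RefSeq lists 26 of the 34 as protein coding. At the 4-cell stage 12 of the 34 were already at 10 or more in all 3 libraries and none was below 1 in all 3. Of the 33 names also listed in the NC table, 24 were at 10 or more in both NC siRNA libraries. In the untreated set, 8-cell replicate 2 held the highest value for 23 of the 34 names. The reverse pattern, 10 or more in all MII libraries and below 1 in all 8-cell libraries, was found for 11 names. Besides 9 LOC names these were *C11H2orf91* and *UBE2S*, which encodes the chain-elongating E2 enzyme of the anaphase-promoting complex, and which are named here after their values were seen. *UBE2S* measured 23.9, 14.8 and 22.7 in the MII libraries and 0.744, 0.788 and 0.621 in the 8-cell libraries. In the NC siRNA libraries 10 of these 11 names were at 10 or more in both, and *C11H2orf91* was at 0 in both.

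Factors known to act at genome activation were examined next. Of 44 listed factors, mostly transcription factors, 33 were in both tables and 25 were tested, of which 12 were increased (48%, against 9.88% of all tested genes) and 1 was decreased (4%, against 11%), with a median log2 fold change of 1.48 against 0.04. Of the 12 increased genes, 10 had an MII mean below 1 and so entered the test through their 8-cell level, which by itself favours increases, and the counts and the median are given as a description only. As deposited, 16 were increased and 1 decreased. Beside *ARGFX*, *DUXA* and *LEUTX*, the increased genes were *OTX2*, *TFAP2C*, *KLF3*, *KLF4*, *KLF5*, *KLF10*, *KLF17*, *MYC* and *SP1*. The decreased gene was *NFYA*, a subunit of the CCAAT-binding factor NF-Y. *OTX2*, a PRD-class homeobox gene of early embryos, had 0.572, 0.381 and 0.351 rescaled FPKM in the MII libraries and 9.43, 31.3 and 8.96 in the 8-cell libraries (log2 fold change 3.39 ± 0.45, adjusted p = 0.00228). The summed level of the 33 listed factors was 158, 133 and 192 in the MII libraries and 566, 1749 and 680 in the 8-cell libraries. It was 254 to 276 in the 4-cell libraries. The list had been compiled with results of these data known, so its direction is not independent evidence. Without 8-cell replicate 1 the increased genes of the list numbered 17, and 10 without MII replicate 1, MII replicate 3 or 8-cell replicate 3.

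Transcription factors of the later lineages were sparse in the oocyte. Of 33 genes of the inner cell mass, trophectoderm and primitive endoderm, 29 were in both tables and 16 were tested, of which 7 were increased and 0 decreased by the adjusted p. Of the 7, 6 had an MII mean below 1 and passed the limit on low values through the 8-cell libraries, which by itself favours increases. Listed genes with a mean below 1 over the 6 libraries were not tested. The share of 43.8% (9.88% over all tested genes) and the median of 0.73 are given as a description only. Without 8-cell replicate 1, 3 genes of this list were decreased beside 7 increased. *NANOG*, a core factor of pluripotent cells, had 0 fragments in all MII libraries and 5.91, 17.2 and 2.57 rescaled FPKM in the 8-cell libraries. Against the level of 3 fragments per MII library its 8-cell mean ± SD of 8.56 ± 7.67 was at least 95.2-fold higher. Replicate 2 raised that mean, and so the bound. *PRDM14*, a germ line and pluripotency regulator, also had 0 fragments in the MII libraries. With 2.00, 5.73 and 2.89, its 8-cell mean of 3.54 was at least 65.2-fold higher. *TFAP2C*, a trophectoderm factor, went from 0, 0.0405 and 0 to 7.45, 23.1 and 4.37 (log2 fold change 3.35 ± 0.50, adjusted p = 0.00375), and *PDGFRA*, a receptor of the primitive endoderm, from 0.0385, 0 and 0.052 to 2.24, 4.32 and 2.38 (1.91 ± 0.28, adjusted p = 0.00344). *TFAP2C*, *KLF4* and *KLF5* stand in both lists of transcription factors.

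Among genes with a symbol, the largest decreases were those of *LSM7*, *SQSTM1* and *NDUFA6*. *LSM7* encodes a subunit of the LSM rings that bind mRNA 3′ ends for decapping and U6 snRNA for splicing. It measured 545, 429 and 152 rescaled FPKM in the MII libraries and 4.62, 19.9 and 4.57 in the 8-cell libraries (log2 fold change -5.25 ± 0.63, adjusted p = 0.00152). *SQSTM1*, the autophagy receptor p62, fell from 44.0, 44.4 and 88.2 to 3.05, 0.166 and 1.67 (-4.60 ± 0.49, adjusted p = 0.000996). *NDUFA6*, a subunit of respiratory complex I, fell from 202, 252 and 64.1 to 2.71, 9.92 and 4.82 (-4.60 ± 0.57, adjusted p = 0.00172). MII replicate 3 was the lowest oocyte library for *LSM7* and *NDUFA6* and the highest for *SQSTM1*. *TOMM7*, a subunit of the mitochondrial import pore, was the most abundant of the 12 in the oocyte, with 1125, 738 and 943, and fell to 24.7, 68.6 and 48.3 (-4.37 ± 0.38, adjusted p = 0.0004). *COMMD8*, a COMM domain gene, was even among the MII libraries, with 147, 127 and 131, and measured 4.82, 12.6 and 8.93 in the 8-cell libraries (-3.88 ± 0.33, adjusted p = 0.000365).

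The remaining large decreases were those of *KRTCAP2*, an oligosaccharyltransferase subunit, with a log2 fold change of -4.44, *MRPS18C*, a mitochondrial ribosomal protein, with -3.82, *DPY30*, a core subunit of histone H3 lysine methyltransferase complexes, with -3.66, *R3HCC1*, with -3.66, and *PSMB3*, a proteasome core subunit, with -3.63. *R3HCC1* owed its MII mean of 25.5 to replicate 2, with 58.5 against 11.3 and 6.76 in the others. The names *MIR147* and *MIR92B* are microRNA loci whose annotated length is 87 bases. The former had 102, 284 and 83 fragments in the MII libraries and 4, 21 and 3 in the 8-cell libraries, and the latter had 34, 53 and 17 and then 0 in all 3. At 12.3 rescaled FPKM in the oocyte, *MIR92B* was at least 11.6-fold lower at the 8-cell stage, with 3 fragments per library as the floor. Poly(A) libraries do not read mature microRNAs, and fragments of a transcript that overlaps such a locus cannot be told apart from those of its precursor. All 12 decreases were called in every fit without 1 library. Set beside the NC siRNA 8-cell libraries, *SQSTM1* was low there as well, at 1.73 and 4.30, and so was *COMMD8*, at 5.77 and 8.46. *LSM7* measured 267 and 330 there, *NDUFA6* 218 and 165, and *MRPS18C* 134 and 326, all far above the untreated 8-cell embryos. For 6 of the 12 decreases (*LSM7*, *NDUFA6*, *KRTCAP2*, *MRPS18C*, *MIR147* and *PSMB3*) both NC libraries were at or above the lowest MII library, and for 10 of the 12 both were above all untreated 8-cell libraries, the exceptions being *SQSTM1* and *COMMD8*.

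Ribosomal proteins and respiratory subunits had the lowest medians of the lists before any account of gene length. Of 74 tested proteins of the cytosolic ribosome, 0 were increased and 26 were decreased by the adjusted p (35.1%, against 11% of all tested genes), with a median log2 fold change of -1.15, against 0.04 for all tested genes. *RPL27* fell from 82.1, 58.8 and 49.2 rescaled FPKM to 2.81, 9.06 and 4.24 (log2 fold change -3.42 ± 0.39, adjusted p = 0.00128). *RPS13* fell from 156, 136 and 84.7 to 11.3, 42.0 and 9.37 (-2.80 ± 0.53, adjusted p = 0.00834). *RPS19* and *RPL19* had log2 fold changes of -3.14 and -2.74. Their MII libraries held 41.9, 55.2 and 9.93 for *RPS19* and 24.5, 85.6 and 7.88 for *RPL19*. The call of *RPS19* was lost without 8-cell replicate 3 (adjusted p = 0.066) or MII replicate 1 (adjusted p = 0.0629). *RPL19* lost its call without 8-cell replicate 1 (adjusted p = 0.0643), 8-cell replicate 3 (adjusted p = 0.144), MII replicate 1 (adjusted p = 0.112) or MII replicate 2 (adjusted p = 0.0947), and as deposited (adjusted p = 0.081). Of the 74 genes, 38 were decreased without 8-cell replicate 2, 23 without 8-cell replicate 1, 22 without MII replicate 3, 15 without MII replicate 2, 9 without 8-cell replicate 3 and 10 without MII replicate 1. As deposited, 14 were decreased.

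Of 55 tested nuclear-encoded subunits of the respiratory complexes and ATP synthase, 22 were decreased (40%, against 11% of all tested genes) and 1 was increased, with a median log2 fold change of -1.10 against 0.04. Most of the decreased genes carry *NDUF* names, and *SDHD*, of complex II, and *ATP5B*, *ATP5H*, *ATP5I* and *ATP5J*, of ATP synthase, were the others. *NDUFC1* fell from 135, 131 and 111 to 5.92, 21.0 and 9.14 (-3.45 ± 0.41, adjusted p = 0.00146). *ATP5H*, a subunit of the ATP synthase stalk, fell from 47.4, 86.7 and 20.8 to 2.61, 8.50 and 3.62 (-3.06 ± 0.55, adjusted p = 0.00646). The increased subunit was *ATP5C1*, the gamma subunit of ATP synthase, named after its values were seen, with a log2 fold change of 1.09. Its call was lost without 8-cell replicate 2 or 3 and without MII replicate 1, 2 or 3, where 0 subunits were increased. Without 8-cell replicate 1, 3 were increased. *NDUFA11* had a log2 fold change of -3.03 from MII levels of 9.49, 30.5 and 1.78, and its call was lost without 8-cell replicate 3 (adjusted p = 0.0865) or MII replicate 1 (adjusted p = 0.0804). Of the 55 genes, 10 were decreased without MII replicate 1 and 11 without 8-cell replicate 3, against 22 without 8-cell replicate 1. As deposited, 16 were decreased and 3 increased.

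Both lists hold short transcripts and differ between the sets of 8-cell embryos. The median length was 724.5 bases for the ribosomal proteins and 838 for the respiratory subunits, against 2828.5 for all tested genes. With the trend of the change on gene length removed, their medians were -0.377 and -0.56, and that of the meiotic list, at -0.380, lay beside them. The summed level of the 74 listed ribosomal proteins was 3940, 4599 and 3259 in the MII libraries, 1585, 3699 and 2130 in the untreated 8-cell libraries, and 44047 and 63104 in the NC siRNA 8-cell libraries. For the 56 listed respiratory subunits it was 3003, 3138 and 2996, then 1057, 2086 and 1713, and 4559 and 5240. In both lists 8-cell replicate 1 was the lowest of the untreated libraries, and for the ribosomal proteins replicate 2 lay within the MII range. The 2 sets of 8-cell embryos differ in injection, in the study they come from and in their normalization, which cannot be told apart here.

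**Figure D3:**
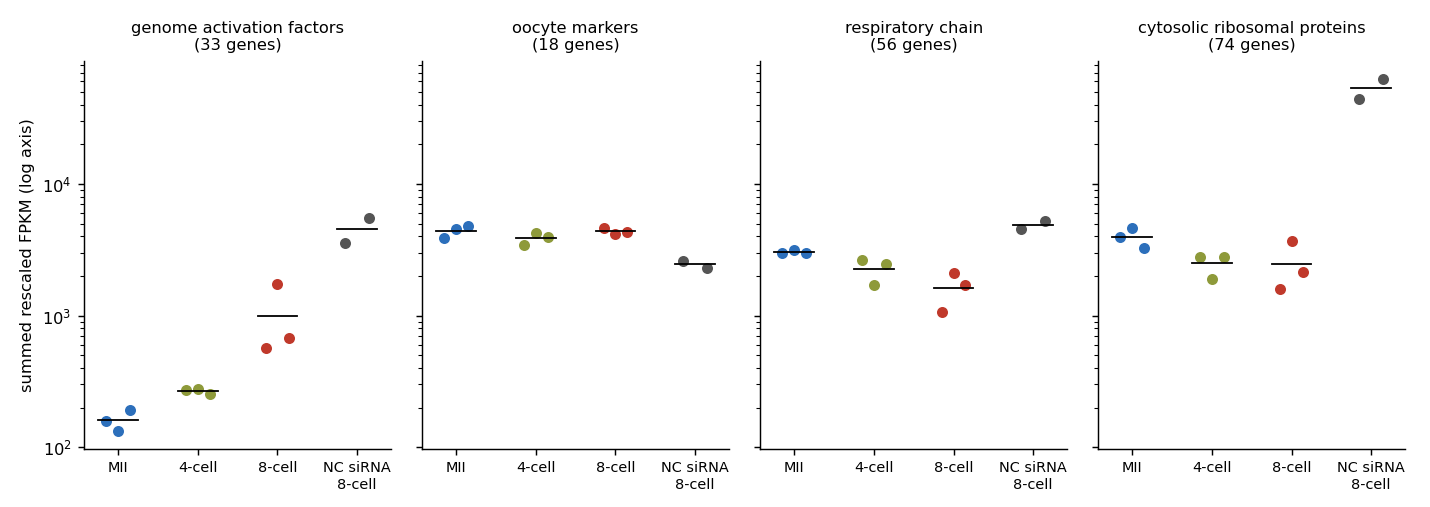
Summed rescaled FPKM of 4 gene lists (log axis, 1 point per library, line at the mean) in MII oocytes, 4-cell, untreated 8-cell and NC siRNA 8-cell embryos. The genome activation factors sum to 566 to 1749 in the untreated 8-cell libraries against 133 to 192 in MII oocytes, and ribosomal proteins reach 44047 and 63104 in the NC siRNA libraries only.

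Gene length went with the direction of the calls over all tested genes. Lengths are those recovered from the FPKM steps. Among the 2304 tested genes of up to 1712 bases, 494 (21.4%) were decreased and 264 (11.5%) were increased. In the next groups of 1713 to 2828, 2829 to 4536 and 4539 to 113500 bases, 9.43%, 6.69% and 6.26% were decreased and 11.3%, 9.94% and 6.82% were increased. The median length was 1761 bases for the decreased genes and 2505 for the increased genes. Across genes, which are not independent replicates, the log2 fold change correlated with log2 length by 0.11. Annotation classes of RefSeq were also uneven, with 57 transcribed pseudogenes among the 1009 decreased genes and 12 among the 910 increased genes, of 108 tested. Reads of such copies can come from the parent gene.

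**Figure D4:**
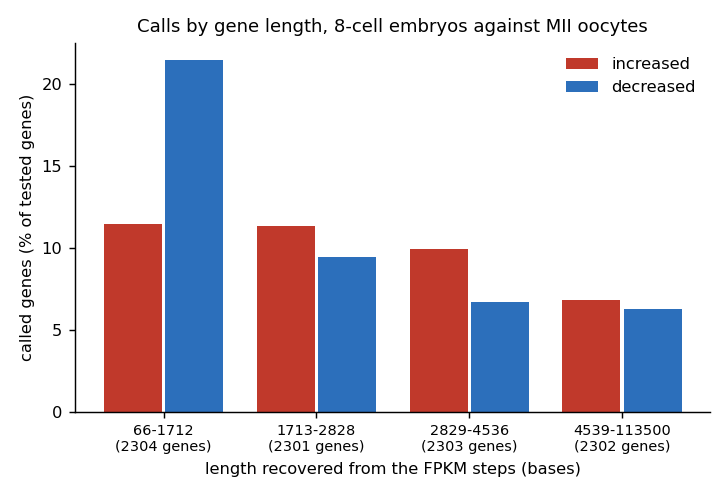
Share of tested genes called increased (red) and decreased (blue) in 4 groups of gene length, in % of the genes of each group. In the group of 66 to 1712 bases 21.4% of the genes were decreased, and in that of 4539 bases and more 6.26%.

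The lists that follow held calls at shares nearer to those of all tested genes (9.88% increased and 11% decreased), and most of their balances between the directions moved with the scaling. Of 48 tested subunits and general factors of RNA polymerase II, 10 were decreased and 3 increased (20.8% and 6.25%), or 6 and 5 as deposited, with a median log2 fold change of -0.39 (-0.00471 as deposited). *GTF2B*, which bridges the TATA-binding protein and the polymerase, fell from 50.2, 47.2 and 40.5 rescaled FPKM to 5.49, 9.71 and 7.36 (log2 fold change -2.49 ± 0.27, adjusted p = 0.00105). *POLR2H*, a subunit that all 3 nuclear polymerases share, fell from 19.0, 14.6 and 12.5 to 1.53, 3.35 and 2.28 (-2.29 ± 0.30, adjusted p = 0.00204). *GTF2H5*, the smallest subunit of TFIIH, had a log2 fold change of -1.98 and lost its call without 8-cell replicate 3 (adjusted p = 0.106), MII replicate 1 (adjusted p = 0.0999) or MII replicate 2 (adjusted p = 0.0849), and as deposited (adjusted p = 0.0732). The partner of SUPT4H1 in DSIF, *SUPT5H*, was among the decreased genes. The other increased genes were *GTF2E2*, of TFIIE, and *TBPL2*, the TATA-binding protein paralogue of oocytes, both named after their values were seen. Without 8-cell replicate 3, MII replicate 1 or MII replicate 3, *SUPT4H1* was the only increased gene of the list, so both calls were lost. Increased genes numbered 5 without 8-cell replicate 1, 2 without 8-cell replicate 2 and 4 without MII replicate 2. The decreased genes of the list numbered 5 without MII replicate 1, MII replicate 2 or 8-cell replicate 3 and 6 without MII replicate 3.

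Of 89 tested nucleolar genes that make rRNA and build ribosomal subunits, 5 were increased and 8 decreased (5.62% and 8.99%, both below the shares of all tested genes), or 7 and 4 as deposited, with a median of -0.30, or 0.07 as deposited. *UTP3*, of the small subunit processome, and *GNL2*, a nucleolar GTPase, had log2 fold changes of -2.12 ± 0.32 (adjusted p = 0.00375) and -1.98 ± 0.23 (adjusted p = 0.00128). *UTP11* and *RPF1* had changes of 2.17 and 2.00. Leaving out MII replicate 1 ended both calls (adjusted p of 0.0685 and 0.111), and so did leaving out MII replicate 3 (0.0596 and 0.0982) or 8-cell replicate 3 (0.0673 and 0.103). That of *RPF1* also ended with 8-cell replicate 2 left out (0.0685). Without 8-cell replicate 1 there were 8 increased and 17 decreased genes in this list. Increased genes numbered 3 without 8-cell replicate 2 and 0 by the adjusted p without 8-cell replicate 3, MII replicate 1 or MII replicate 3, where 6, 4 and 5 were decreased.

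Of 27 tested proteins that store or activate dormant mRNAs, 3 were increased (11.1%, near the 9.88% of all tested genes) and 0 decreased by the adjusted p. As deposited, 6 were increased. Without 8-cell replicate 1, 2 were decreased, and without 8-cell replicate 3, MII replicate 1 or MII replicate 3, 1 was increased. The median log2 fold change was 0.43. *LSM14A*, a P-body protein that represses translation, rose from 7.78, 10.3 and 5.2 to 23.0, 37.0 and 31.0 (log2 fold change 1.85 ± 0.31, adjusted p = 0.00519). *PAIP1*, which binds the poly(A)-binding protein, stood out by its level of 3135, 2902 and 3233 in the MII libraries and 5701, 14148 and 11541 in the 8-cell libraries, with a log2 fold change of 1.66. In the NC siRNA 8-cell libraries it was at 1057 and 1063, below every MII library. Its call and that of *PAIP2*, with a change of 2.19, were each lost in 4 of the 6 fits without 1 library. For *PAIP1* the adjusted p was 0.0792 without MII replicate 1, 0.0558 without MII replicate 2, 0.0549 without MII replicate 3 and 0.0815 without 8-cell replicate 3. For *PAIP2* it was 0.123 without MII replicate 1, 0.112 without MII replicate 3, 0.0717 without 8-cell replicate 2 and 0.12 without 8-cell replicate 3.

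Among 49 tested genes of mRNA decay, 9 were decreased and 4 increased (18.4% and 8.16%), with a median of -0.22. As deposited the balance turned, with 3 decreased and 9 increased and a median of 0.13. The exosome degrades RNA from the 3′ end. Of its 9 tested *EXOSC* genes 4 were decreased (*EXOSC7*, *EXOSC8*, *EXOSC9* and *EXOSC10*), where 11% of all tested genes were, and *EXOSC1* to *EXOSC5* were not called. *LSM7* and *EXOSC9* were among the 3 genes of the list decreased as deposited, and among the 3 decreased without MII replicate 1. Most of the calls of *EXOSC7*, *EXOSC8* and *EXOSC10* were thus lost in each of these fits. *EXOSC9* fell from 124, 125 and 135 rescaled FPKM to 20.8, 53.0 and 36.6 (log2 fold change -1.87 ± 0.34, adjusted p = 0.00712). LSM subunits went in both directions, since *LSM4* and *LSM2* rose while *LSM7* fell. *LSM4* measured 4.65, 16.9 and 8.05 in the MII libraries and 51.1, 31.4 and 45.1 in the 8-cell libraries (2.14 ± 0.43, adjusted p = 0.00977), and *LSM2* had a change of 1.89 ± 0.38 (adjusted p = 0.00973). The decreased genes of this list numbered 3 without MII replicate 1 and 4 without MII replicate 2, MII replicate 3 or 8-cell replicate 3.

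Of 31 tested regulators of meiotic arrest and exit, 5 were decreased and 1 was increased (16.1% and 3.23%), with a median of -0.44. As deposited, 3 were decreased and 3 increased, with a median of -0.06. *FBXO5*, the inhibitor EMI1 of the anaphase-promoting complex, fell from 229, 209 and 277 rescaled FPKM to 41.2, 83.4 and 79.6 (log2 fold change -1.85 ± 0.32, adjusted p = 0.00581). *CCNB2*, a cyclin of CDK1, fell from 329, 319 and 287 to 75.7, 118 and 117 (-1.61 ± 0.26, adjusted p = 0.00463), and *SGO1*, which guards centromeric cohesin, had a change of -1.42 ± 0.24 (adjusted p = 0.00505). The phosphatase gene *CDC25B*, which activates CDK1 at the return to meiosis, rose from 8.02, 10.4 and 9.20 to 49.9, 27.8 and 27.2 (1.77 ± 0.30, adjusted p = 0.00536). *CKS1B* and *BUB1B* were the other decreased genes, and 3 of the list were decreased without MII replicate 1, MII replicate 3 or 8-cell replicate 3.

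Markers of the oocyte differed in how they compared between the stages. The growth factor gene *GDF9* measured 243, 391 and 233 rescaled FPKM in the MII libraries and 320, 507 and 376 in the 8-cell libraries, and *BMP15* 344, 468 and 393 and then 640, 472 and 428. The groups overlapped for *GDF9*, *BMP15*, *ZP2* and *ZP4*, and their log2 fold changes of 0.20 to 0.49 did not pass the test (adjusted p of 0.283 to 0.692). Of 17 tested oocyte markers, 0 were increased and 3 were decreased by the adjusted p (17.6%, against 11% of all tested genes), and the median was -0.07. Without 8-cell replicate 1 the median was -0.46, and that library alone held the high 8-cell values of *NOBOX* (16.2, against 0.927 and 1.60) and *ASTL* (36.3, against 3.28 and 5.51), both named after their values were seen. As deposited, 1 was increased and 1 decreased, with a median of 0.33. The decreased genes were *RGS2*, a regulator of G protein signalling, with 75.0, 61.7 and 55.0 against 10.8, 9.72 and 9.08 (log2 fold change -2.57 ± 0.24, adjusted p = 0.00051), *ZP3*, a zona pellucida glycoprotein, and *FIGLA*, the transcription factor of zona genes. *ZP3* had a change of -1.74 and lost its call without MII replicate 2 (adjusted p = 0.0704), MII replicate 3 (adjusted p = 0.0666), 8-cell replicate 2 (adjusted p = 0.0807) or 8-cell replicate 3 (adjusted p = 0.122), and as deposited (adjusted p = 0.137). *FIGLA*, with -1.72, lost it without MII replicate 1 (adjusted p = 0.0802), MII replicate 2 (adjusted p = 0.0732) or 8-cell replicate 3 (adjusted p = 0.127), and as deposited (adjusted p = 0.0871). In the NC siRNA 8-cell libraries *GDF9* was at 66.2 and 61.5, below both untreated groups.

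Among the 6 tested genes of the subcortical maternal complex, *NLRP9* rose and *KHDC3L* fell (16.7% each way, against 9.88% and 11% of all tested genes). *NLRP9* had 46.3, 92.9 and 46.1 in the MII libraries and 205, 122 and 185 in the 8-cell libraries (log2 fold change 1.5 ± 0.35, adjusted p = 0.0192), and was not called without MII replicate 1 (adjusted p = 0.0917), MII replicate 3 (adjusted p = 0.0769) or 8-cell replicate 3 (adjusted p = 0.0823). In the NC siRNA libraries *NLRP9* was at 16.2 and 19.0, below every MII library. *KHDC3L* had 78.0, 37.0 and 87.2 and then 15.04, 18.7 and 24.5 (-1.68 ± 0.37, adjusted p = 0.0144), and was not called without MII replicate 1 (adjusted p = 0.0715) or MII replicate 3 (adjusted p = 0.0601). *NLRP5*, the central maternal-effect gene of this complex, was low in both groups, with 1.15 to 3.20 in the MII libraries and 0.199 to 6.16 in the 8-cell libraries.

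**Figure D5:**
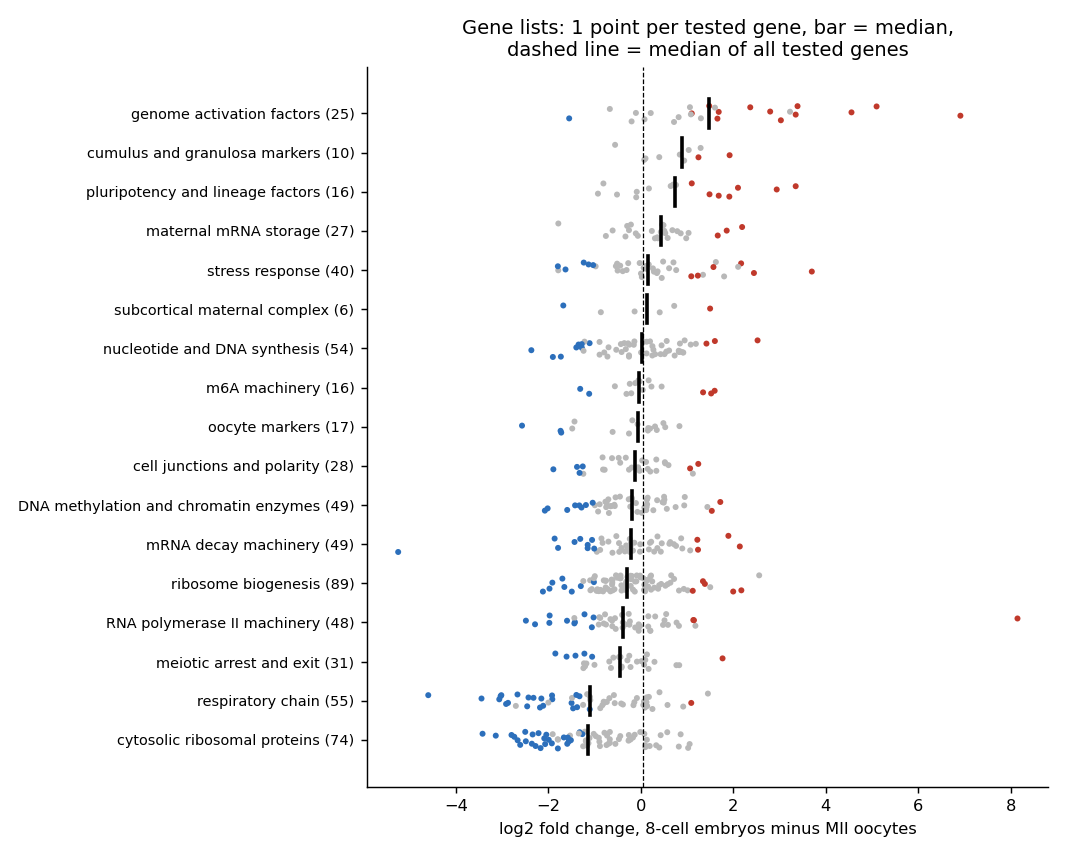
Log2 fold change (8-cell embryos minus MII oocytes) of each tested gene in 17 lists with at least 6 tested genes, with the number tested in brackets, a black bar at the median of each list and a dashed line at 0.04, the median of all tested genes. Red points are increased, blue points decreased and grey points neither; the lists run from the genome activation factors (1.48) to the ribosomal proteins (-1.15).

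Chromatin enzymes had 8 decreased and 2 increased genes of 49 tested (16.3% and 4.08%), with a median of -0.20. As deposited, 4 were decreased and 5 increased, with a median of 0.16. *KDM1A*, the demethylase LSD1 of histone H3, fell from 115, 81.0 and 114 rescaled FPKM to 20.1, 21.6 and 29.6 (log2 fold change -2.08 ± 0.27, adjusted p = 0.00197). *UHRF2*, a relative of the DNA methylation cofactor UHRF1, fell from 580, 433 and 511 to 103, 140 and 131 (-2.02 ± 0.25, adjusted p = 0.00171). *DNMT3B*, a de novo DNA methyltransferase, was low throughout and had a change of -1.59 ± 0.29 (adjusted p = 0.00707). *SUZ12*, of the Polycomb repressive complex PRC2, rose from 5.82, 4.94 and 6.54 to 12.5, 29.1 and 25.6 (1.72 ± 0.34, adjusted p = 0.0097), and its adjusted p was 0.0507 without 8-cell replicate 3. *EZH2*, the catalytic subunit of the same complex, was among the decreased genes. The list held 3 decreased genes without MII replicate 1 and 5 without MII replicate 3. Without 8-cell replicate 1 it held 12 decreased and 5 increased genes.

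Adhesion genes used at compaction, the step that follows the 8-cell stage, had 2 increased and 4 decreased genes of 28 tested (7.14% and 14.3%), with a median of -0.13. As deposited, 2 were increased and 1 decreased, with a median of 0.18. *CDH1*, which encodes E-cadherin, fell from 21.8, 16.1 and 17.2 to 4.48, 4.96 and 3.26 (log2 fold change -1.89 ± 0.26, adjusted p = 0.00255). *ITGB1*, *MSN* and *CTNNA1* had changes of -1.38, -1.33 and -1.26, and of -0.99, -0.95 and -0.86, short of the log2 limit of 1, as deposited. Without MII replicate 1 the adjusted p of these 3 was 0.0797, 0.0685 and 0.06, and without MII replicate 3 it was 0.0761 for *ITGB1* and 0.0596 for *MSN*. The increased genes were *GJC1*, a gap junction gene, and *PRKCZ*, a polarity kinase gene. Without 8-cell replicate 3, MII replicate 1 or MII replicate 3, 0 genes of the list were increased, and 1 was in each other fit without 1 library. Without MII replicate 1 the list held 1 decreased gene, without MII replicate 3 it held 2, and without 8-cell replicate 1 it held 7.

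Of 40 tested stress genes, 6 were increased and 5 decreased (15% and 12.5%, near the shares of all tested genes), with a median of 0.14. As deposited, 8 were increased and 1 decreased. *DNAJB9* and *HSPA5*, chaperones of the endoplasmic reticulum, rose from 0.971, 1.51 and 1.52 to 15.9, 76.0 and 19.8 (log2 fold change 3.70 ± 0.54, adjusted p = 0.00309) and from 11.8, 17.2 and 13.4 to 44.3, 120 and 54.4 (2.17 ± 0.39, adjusted p = 0.00642). *ATF3*, a transcription factor of the stress response, had a change of 2.44 ± 0.30 (adjusted p = 0.00164), and *GADD45B*, *PRDX6* and *HSPH1* were increased too. The decreased genes were *SOD1*, *PRDX2*, *PRDX3*, *CAT* and *HSP90AB1*. Peroxiredoxins, which remove peroxides, thus stood on both sides, with *PRDX6* increased and *PRDX1*, *PRDX4* and *PRDX5* not called. Without 1 library the increased genes numbered 3 to 7 and the decreased genes 1 to 5, the fewest without MII replicate 1. *SOD1* overlapped between the groups, with 50.4 as its lowest MII value and 55.0 as its highest 8-cell value. Its call (log2 fold change -1.80) was lost without 8-cell replicate 1 (adjusted p = 0.07), 8-cell replicate 3 (adjusted p = 0.16), MII replicate 1 (adjusted p = 0.134) or MII replicate 2 (adjusted p = 0.135), and as deposited (adjusted p = 0.0969).

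In nucleotide and DNA synthesis, 3 of 54 tested genes were increased and 8 were decreased (5.56% and 14.8%), with a median of 0.03. As deposited the balance turned, with 7 increased and 4 decreased and a median of 0.37. *DUT*, which clears dUTP, fell from 104, 73.6 and 39.4 to 9.98, 18.3 and 9.76 (log2 fold change -2.37 ± 0.40, adjusted p = 0.00539). *TYMS*, thymidylate synthase, fell from 255, 240 and 283 to 65.3, 72.1 and 68.0 (-1.90 ± 0.22, adjusted p = 0.00133), with little spread in either group. *PPAT*, the first committed enzyme of purine synthesis, rose from 0.876, 0.464 and 0.397 to 4.38, 17.3 and 6.36 (2.52 ± 0.45, adjusted p = 0.00627). *CDC45*, of the replicative helicase, had a change of -1.73 and lost its call without MII replicate 1 (adjusted p = 0.051) or 8-cell replicate 3 (adjusted p = 0.0525). The decreased genes numbered 4 without MII replicate 1 and 5 without MII replicate 3 or 8-cell replicate 3.

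The study turns on N6-methyladenosine (m6A), a mark on mRNA, and its 16 listed genes were all tested. *YTHDC1*, *YTHDF2* and *ALKBH5*, 2 readers and an eraser, were increased (18.8%, against 9.88% of all tested genes), with log2 fold changes of 1.59, 1.52 and 1.34. *KIAA1429* and *METTL3*, of the writer complex, were decreased (12.5%, against 11% of all tested genes), with -1.31 and -1.12. As deposited their changes were -0.98 and -0.78, and neither was called. The 11 others (*METTL14*, *WTAP*, *ZC3H13*, *RBM15*, *RBM15B*, *CBLL1*, *METTL16*, *FTO*, *YTHDF1*, *YTHDF3* and *YTHDC2*) had changes of -0.56 to 0.45 that did not pass the test. Each of the 5 calls was lost in at least 1 fit without 1 library. *YTHDF2*, with 3.12, 2.90 and 4.09 rescaled FPKM in the MII libraries and 7.64, 16.7 and 11.6 in the 8-cell libraries, had an adjusted p of 0.0612 without MII replicate 1 and 0.0522 without 8-cell replicate 3. That of *KIAA1429* was 0.054 without MII replicate 1. *METTL3* was called in 2 of the 6 fits, with an adjusted p of 0.143 without MII replicate 3, 0.099 without MII replicate 1, 0.0746 without MII replicate 2 and 0.0937 without 8-cell replicate 2. *YTHDC1* was called without 8-cell replicate 1 and had an adjusted p of 0.0625 to 0.104 in the other fits. *ALKBH5* was called without 8-cell replicate 2. Its change was 0.95 without 8-cell replicate 1, and its adjusted p was 0.075 to 0.14 in the other 4 fits, and it was at 6.14 and 6.46 in the NC siRNA libraries, below the 9.11 to 12.6 of the MII libraries.

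Genes of other cells were examined as well. Of 10 tested cumulus and granulosa genes, 2 were increased (20%, against 9.88% of all tested genes) and 0 decreased by the adjusted p. Of the 10, 9 had a log2 fold change above 0, and the median was 0.89. As deposited, 4 were increased. *LUM*, a matrix proteoglycan, rose from 2.48, 1.83 and 1.78 to 5.62, 16.1 and 12.1 (log2 fold change 1.92 ± 0.37, adjusted p = 0.00877). *GREM1*, a BMP antagonist, had a change of 1.24 and was also called without 8-cell replicate 3. Its change was 0.91 without 8-cell replicate 1, and its adjusted p was 0.0745 to 0.134 in the other 4 fits. *HAS2* and *CYP19A1* passed the adjusted p, but their changes of 0.94 and 0.84 on log2(value + 1) fell short of the limit of 1. The ratios of their mean rescaled FPKM were 2.03 and 3.61. *TNFAIP6* overlapped, with 24.1 in MII replicate 3. The summed level of the 22 listed genes was 116 to 184 in the MII libraries and 165 to 215 in the 8-cell libraries, which overlapped. Of the defining genes *AMH* was at 0 in all 6 libraries, and *FSHR* and *PTX3* were below 1 in all 8-cell libraries. In MII replicate 3 *PTX3* was at 2.93 and *FSHR* at 0.309, against at most 0.0624 and 0 in the other MII libraries, so that these genes were highest in the oocyte library that was also high for *TNFAIP6*. The listed sperm genes summed to 4.53 to 6.56 and 8.15 to 15.6, with *ODF1* and *AKAP4* below 1 in every library. The listed blood genes summed to at most 1.44, and *PTPRC* was below 1 in all 6 libraries. The part of carried-over cumulus cells in these increases was not tested.

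Levels at the 4-cell stage are given as a description, since genes called for a wide gap between the 2 stages leave more room for a value in between. The 4-cell mean was between the MII and the 8-cell mean for 716 of the 910 increased genes and 785 of the 1009 decreased genes. It lay above both stages for 165 of the increased genes and below both for 183 of the decreased genes. Over all 9210 tested genes it was between the stages for 3944, above both for 2550 and below both for 2716. In the NC siRNA 8-cell libraries, the median level of the 900 increased genes listed there was 13.2, and that of the 1009 decreased genes 12.5. The untreated 8-cell embryos had medians of 19.3 and 4.29 for the same genes, and the MII oocytes 4.22 and 18.4. Of the 35 named increased genes listed in the NC table, 30 were above all MII libraries in both NC libraries and 3 (*PAIP1*, *NLRP9* and *ALKBH5*) were below all of them. Of the 45 named decreased genes, 22 were below all MII libraries in both NC libraries and 14, among them *MRPS18C*, *GTF2B* and *RPS13*, were above all of them.

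The number of genes above a low limit overlapped between the stages. Of the shared names, 8504, 8819 and 8546 were at 1 rescaled FPKM or more in the MII libraries and 9176, 8477 and 8459 in the 8-cell libraries. The means ± SD of 8623 ± 171 and 8704 ± 409 differed by 81 genes, with an exact permutation p of 1 (two-sided), where 3 against 3 libraries cannot go below 0.1. The high value of 8-cell replicate 1 set the sign, since without it the 8-cell mean was lower than the MII mean by 155 genes (difference -155). As deposited, the difference was 698 genes, with an exact permutation p of 0.3.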

How the data were processed

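RNA-seq libraries of MII oocytes and of 4- and 8-cell goat embryos were used. Per the study's methods and labels, the authors used HISAT2 on the ARS1 assembly, retained reads with 1 mapping location, took gene counts from HTSeq and deposited FPKM for each library. Whole-fragment steps of the deposited FPKM gave back fragments and lengths of all 17918 shared genes above 0 (tolerance 0.001 fragment plus a small share), where the scale of the totals was set by agreement of lengths with RefSeq, and lengths from either table alone were the same for 86.3% of genes. Names were matched to RefSeq (99.8%), with no coordinates used. The YTHDF2 siRNA table was not used here.

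Rescaled FPKM were tested on log2(value + 1) with limma 3.58.1 in R 4.3.3 (lmFit, eBayes with a trend), two-sided, over 9210 genes, so that fold changes of low genes are understated. Python 3.11.15 did the rest, and the fit was tested on simulated data. The pseudocount, filter, scaling, libraries and test were varied. The 4-cell and NC libraries were put on this scale by their median ratio. No replicate is stated to be a separate culture, so p-values measure only the spread between these samples. The spread may be technical. Floors of 3 fragments cover counting error only, since PCR copies are not independent molecules.

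Named are the 12 largest increases and 12 largest decreases among called genes with a symbol whose groups did not overlap and whose higher group averaged 10 rescaled FPKM or more, the 4 largest called changes of each of 19 lists, all m6A genes and the cell type markers. The comparison, the lists and the rules were chosen with earlier results of these data known.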

Additional observations from a re-analysis of the deposited data

Results flagged for a closer look

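The 8-cell table lists 3667 names that the MII table does not, which entered no comparison, and 93 of them were at 10 FPKM or more in all 3 8-cell libraries. The most abundant one with a gene symbol was *HNRNPF*, an RNA-binding protein gene, with 83.9, 84.6 and 45.9 deposited FPKM and a mean ± SD of 71.5 ± 22.2 (n = 3). These names held 3.23 to 4.40% of the summed FPKM of the 8-cell libraries, and their levels in MII oocytes were not analysed here.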

How the results depend on the processing

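Increased and decreased genes numbered 910 and 1009. With FPKM as deposited they numbered 1585 and 627, a share of decreases of 28.3% of the calls against 52.6%, and with totals over the shared genes only 734 and 1149, a share of 61.0%. Without 1 library they ranged from 409 to 1263 and from 519 to 1247, the fewest without MII replicate 1 and the most without 8-cell replicate 1. The pseudocount of 0.1, the other filters, quantile normalization, all 9 untreated libraries in 1 fit, voom and the other call rules gave 659 to 1101 increased and 742 to 1176 decreased genes. The difference in genes at 1 rescaled FPKM or more was 81, and ranged from -155 to 204 without 1 library and from 25.3 to 698 under other limits or scaling, with -155 without 8-cell replicate 1. No source states that equal replicate numbers mark a shared animal or day. Deviations of same-numbered libraries from the mean of their stage at each gene correlated by -0.13, 0.11 and 0.04. The samples were therefore not paired, and a replicate block gave 896 and 1023. Of 100 named genes 81 were called, and 56 of these in all 6 fits without 1 library. With all 6 libraries kept, 10 of the 81 calls were lost as deposited, 6 with totals over the shared genes (*ZP3*, *NLRP9*, *PAIP2*, *RPL19*, *ALKBH5* and *GREM1*), 14 with no filter, 2 with quantile normalization and 2 with voom. Signs turned only for genes that had not passed the test. As deposited this was so for *ZC3H13* (0.0645), *RBM15* (0.11), *METTL16* (0.26), *FTO* (0.0397), *YTHDF1* (0.30), *YTHDF3* (0.25) and *NLRP5* (0.13). *YTHDC2* turned under the shared total (-0.0835) and quantile normalization (-0.0192). Without 1 library the log2 fold changes ranged from -0.22 to 0.0906 for *METTL16*, from -0.22 to 0.10 for *YTHDF1*, from -0.18 to 0.40 for *YTHDC2*, from -0.0138 to 0.44 for *ZP4* and from -0.91 to 0.38 for *NLRP5*. The cause was not tested. Depth limits low genes, since 3 fragments were the floor for genes at 0.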
